A study of Mus musculus with 17 samples.

Results

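YAP (gene Yap1) and TAZ (gene Wwtr1), their DNA-binding partners, their inhibitors and their best known target genes were followed in endothelial cells of mouse bone marrow. The 10 genes were taken by name from the count tables: the coactivators Yap1 and Wwtr1, the transcription factors Tead1 and Tead4, the inhibitors Lats2, Amotl1 and Amotl2, and the targets Ankrd1, Ccn1 and Ccn2. Of the inhibitors, Lats2 and Amotl2 are also targets. They are 10 of 49585 gene rows per library. Of these 10, 9 passed the filter on low counts in every comparison, and Ankrd1 passed in none.

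The study asked what loss of Endoglin (gene Eng), a co-receptor for TGF-β family ligands, does to marrow vessels. KO animals carried Cdh5-CreERT2, a tamoxifen-inducible Cre driven by an endothelial promoter, and Eng f/f alleles with exons 5 and 6 between loxP sites. All 17 animals, WT included, were 8 weeks old when given tamoxifen, and their marrow was taken 2 or 4 weeks after it. The labels do not say whether WT animals carried Cre. The groups were WT at 2 weeks (4 libraries), KO at 2 weeks (4), WT at 4 weeks (5) and KO at 4 weeks (4), with females and males in each. Cells were sorted as CD45-, Ter119-, CD31+ and, per the protocol, Sca1+, while the design text gives the gate without Sca1. Libraries are named by sex and number (f1, m2), and the female without a number is f.

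YAP and TAZ are coactivators that bind no DNA themselves and act through TEAD factors. The Hippo kinases LATS1 and LATS2 phosphorylate them and keep them in the cytoplasm, and angiomotin family proteins such as AMOTL1 and AMOTL2 hold them there as well. In endothelium the pathway responds to flow, stiffness and cell contact and is known for its part in vessel sprouting and barrier function, with Ccn1, Ccn2 and Ankrd1 as common readouts of its activity.

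The libraries held 20477400 to 40882715 counts. The time points stood apart in quality measures: at 2 weeks 22.2% to 29.5% of counts were mitochondrial and 10886 to 13583 genes had a count, against 4.66% to 8.99% and 15996 to 21235 genes at 4 weeks. Anything else that differed between the collections cannot be told apart from time. Endothelial markers were present in all libraries, with Pecam1 at 687.5 to 3143 CPM and Cdh5 at 190.1 to 758.8 CPM (a library's counts scaled to a common total), while Ptprc (CD45) lay between 0 and 15.6 CPM. Eng itself was lower in KO, at 225 to 347 CPM against 704.7 to 1307 CPM at 2 weeks. At 4 weeks it stood at 874 CPM in KO f2, 322 in m1, 1647 in m2 and 274 in m3, against 2400 to 2735 CPM in WT. The groups did not overlap at either time, and the KO library m2 kept the most Eng.

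Per length of exon, Ccn1 led the members at 4 weeks, with Ccn2 next by mean, and Wwtr1 (TAZ) led by mean at 2 weeks. In 4-week WT the order of the mean level in CPM per kb was Ccn1 527 ± 70.6, Ccn2 42.6 ± 9.27, Wwtr1 37.0 ± 3.36, Amotl2 32.8 ± 13.7, Lats2 10.2 ± 4.41, Amotl1 9.59 ± 1.67, Tead4 4.85 ± 1.51, Yap1 2.41 ± 0.524 and Tead1 0.681 ± 0.377 (SD, n = 5). Among neighbours in this order the ranges over libraries overlapped between Ccn2 and Wwtr1, Wwtr1 and Amotl2, Lats2 and Amotl1, and Tead4 and Yap1, and did not overlap between the other neighbours. Ankrd1 came last at 0.0267 ± 0.0597 CPM per kb. In 4-week KO the first 4 genes stood in the same order, with Ccn1 at 492 ± 41.9 and Ccn2 at 51.6 ± 29.4 CPM per kb (SD, n = 4).

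At 2 weeks the order was different. Wwtr1 came first with 54.2 ± 18.7 CPM per kb in WT and 61.3 ± 18.1 in KO, ahead of Ccn1 with 20.4 ± 13.02 and 27.3 ± 14.1 (SD, n = 4 each). In WT, Wwtr1 exceeded Ccn1 in all 4 libraries, and in KO in 3 of 4.

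**Figure D1:**
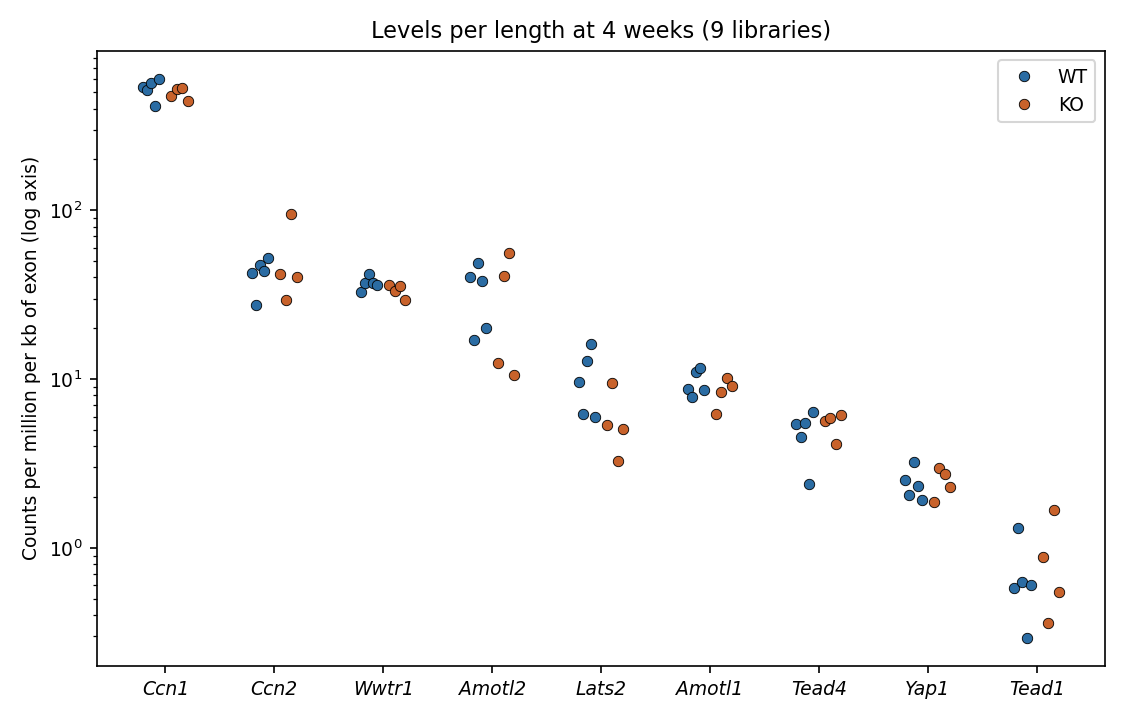
Level of each member at 4 weeks in CPM per kb of exon (y axis, log scale), with genes on the x axis in the order of the WT mean; each point is 1 library, WT (n = 5) beside KO (n = 4). Ccn1 sits above 400 CPM per kb in all 9 libraries, Yap1 and Tead1 sit lowest, and Amotl2 spreads in both genotypes. Ankrd1 is not drawn.

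Within the pairs of paralogs the balance was one-sided at 4 weeks. Wwtr1 exceeded Yap1 per length in 9 of 9 libraries, by a ratio of 11.2 to 19.3 with a median of 12.97. Tead4 exceeded Tead1 by 2.46 to 16.4 in 9 of 9. Amotl2 exceeded Amotl1 by 1.17 to 5.50, and Ccn1 exceeded Ccn2 by 5.62 to 18.8, each in 9 of 9. At 2 weeks Wwtr1 exceeded Yap1 in 8 of 8 libraries, but Tead4 exceeded Tead1 in 5 of 8, Amotl2 exceeded Amotl1 in 6 of 8 and Ccn1 exceeded Ccn2 in 7 of 8. Among the other TEAD genes, Tead2 averaged 3.06 ± 1.04 CPM per kb in 4-week WT (SD, n = 5), between Tead4 and Tead1. Tead3 stood between 0 and 0.504 CPM there.

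The region before the transcription start was read for 7 members from RefSeq (GRCm38.p6), as the 250 bases upstream of the start. Windows are shown for Wwtr1 and Ccn1, the members called between time points by edgeR in both genotypes, and for Yap1, the other coactivator. Capitals mark GGAATG, or its reverse complement CATTCC, the core of the TEAD motif.

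Ccn1: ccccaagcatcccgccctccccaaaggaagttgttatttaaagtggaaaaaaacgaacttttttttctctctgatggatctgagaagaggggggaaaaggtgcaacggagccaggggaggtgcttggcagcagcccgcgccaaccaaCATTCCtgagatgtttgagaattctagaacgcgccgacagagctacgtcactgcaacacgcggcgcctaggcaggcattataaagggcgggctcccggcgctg
Wwtr1: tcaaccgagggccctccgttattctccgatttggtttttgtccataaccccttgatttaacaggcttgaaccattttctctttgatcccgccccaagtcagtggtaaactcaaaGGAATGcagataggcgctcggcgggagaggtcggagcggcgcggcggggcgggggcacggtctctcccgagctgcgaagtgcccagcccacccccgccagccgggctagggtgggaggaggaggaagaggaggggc
Yap1: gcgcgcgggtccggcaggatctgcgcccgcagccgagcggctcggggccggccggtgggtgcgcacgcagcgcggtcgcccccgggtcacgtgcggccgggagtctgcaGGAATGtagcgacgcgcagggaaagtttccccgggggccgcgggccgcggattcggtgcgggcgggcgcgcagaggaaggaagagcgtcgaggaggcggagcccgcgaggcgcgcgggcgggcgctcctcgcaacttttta

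The Ccn1 window lies at chr3:145649986-145650235, the Wwtr1 window at chr3:57575911-57576160 and the Yap1 window at chr9:8004597-8004846, all on the minus strand and printed 5′ to 3′ in the direction of the gene. The Ccn1 match begins 103 bases before the start, that of Wwtr1 136 bases before it, or 170 bases before a second RefSeq start of the gene, and that of Yap1 141 bases before it. Of the 7 members with a window, 5 held the 6 letters on either strand: these 3, Amotl2 (65 bases before the start) and Ankrd1 (210 and 123 bases before it). Amotl1 and Lats2 held none in their windows. Of all 32817 RefSeq windows of this length 12.6% held it. The AP-1 motif TGANTCA (6.75% of windows) and the SRF CArG box (1.47%) were searched on both strands as well and did not occur in the windows of these members. Ccn2, Tead1 and Tead4 had no window in the table used. A match is a string of letters and was not tested for binding.

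KO against WT: loss of Eng was not accompanied by a called change in any member. The edgeR quasi-likelihood test called 0 of 9 members at 2 weeks, 0 of 9 at 4 weeks, 0 of 9 for the average over both times and 0 of 9 for the difference between the KO effects. None of the 9 had an unadjusted p under 0.05 in any of these 4 comparisons, and DESeq2 called 0 of 9 in each as well. Over all genes 276 of 10477 had such a p at 2 weeks, 422 of 15209 at 4 weeks, 1725 of 15703 for the average and 1540 for the difference, and DESeq2 called 149, 17, 1396 and 1303. Eng itself, the deleted gene, was not called by edgeR within a time point, with -1.96 at 2 weeks (SE 0.249, adjusted p = 0.612, edgeR) and -1.72 at 4 weeks (SE 0.501, adjusted p = 1.0, edgeR). Its average over both times was called (-1.83, adjusted p = 0.0455, edgeR), but not in 13 of 17 cases of leaving out 1 library. DESeq2 called Eng at 2 weeks (adjusted p = 1.63e-13) and in the average (1.65e-07), and not at 4 weeks (0.381). By edgeR the share of all genes called was 0.0% of 10477 genes at 2 weeks, 0.0% of 15209 genes at 4 weeks, 0.0828% of 15703 genes for the average and 0.0764% for the difference of effects. No member separated WT from KO without overlap, where 3.36% of all genes did at 2 weeks and 1.19% at 4 weeks. These are bulk libraries, in which fewer cells of a type and less RNA per cell cannot be told apart.

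The precision behind this differed between members and times. At 4 weeks Ccn1 stood at 1089, 1038, 1143, 838 and 1215 CPM in WT f, f3, m1, m2 and m3 and at 956, 1050, 1077 and 894 CPM in KO f2, m1, m2 and m3. The groups overlapped over most of their range. The log2 fold change was -0.09 (SE 0.133; edgeR, 95% confidence interval -0.39 to 0.21), so that the interval held ratios of KO to WT from 0.763 to 1.16. Wwtr1 was as tightly bounded at 4 weeks, with -0.14 (SE 0.126; edgeR, interval -0.42 to 0.15). At 2 weeks the same genes gave 0.42 (SE 0.704) and 0.23 (SE 0.254). For Tead1, Tead4, Yap1, Lats2 and Ccn2 at 2 weeks the SE was 1.71 to 3.86 on the log2 scale, and those values bound nothing of use.

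**Figure D2:**
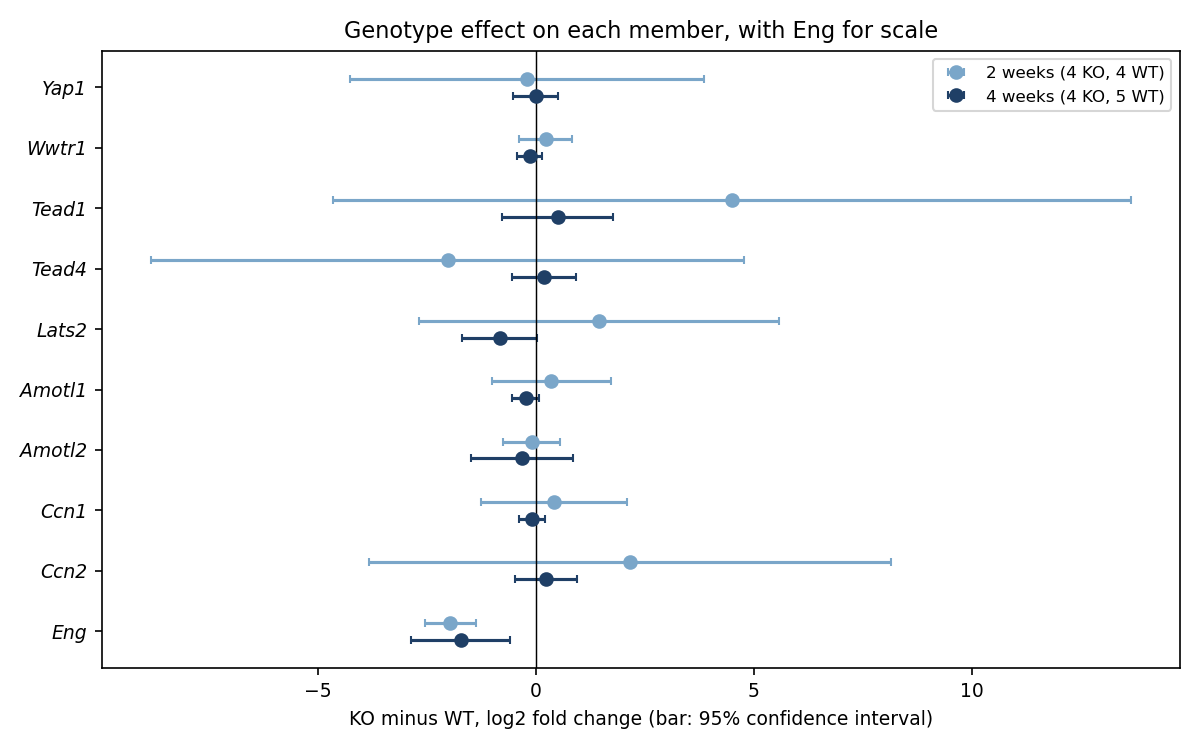
KO minus WT as log2 fold change (x axis) for the 9 members tested and Eng (y axis), at 2 weeks (light, 4 KO and 4 WT libraries) and at 4 weeks (dark, 4 KO and 5 WT); points are edgeR estimates and bars 95% confidence intervals. All members' intervals include 0 and those of Eng do not; the bars of Tead1, Tead4 and Ccn2 at 2 weeks are the widest.

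Lats2, the kinase that restrains YAP and TAZ, had the smallest p of the members. Its level at 4 weeks was 66.7, 43.4, 89.8, 113 and 41.4 CPM in WT f, f3, m1, m2 and m3 and at 37.4, 65.8, 22.7 and 35.5 CPM in KO f2, m1, m2 and m3. The KO values lay in the lower part of the range, and KO m1 lay inside that of WT. The log2 fold change was -0.82 (SE 0.379, unadjusted p = 0.0602, adjusted p = 1.0, edgeR), rank 527 of 15209 genes by p. The exact two-sided permutation test gave p = 0.103. At 2 weeks the estimate had the other sign, 1.45 (SE 1.75, edgeR), with KO f4 at 120.4 CPM and WT f1 at 0 counts; the difference of the effects was -2.34 (SE 1.61, adjusted p = 0.872, edgeR).

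The KO library with the most Eng, m2 of 4 weeks, was also at an end of the 4-week range for several members. It had the highest Ccn2 (271.6 CPM, others 78.4 to 149), the highest Amotl2 (351 CPM) and Tead1 (22.7 CPM), and the lowest Lats2 (22.7 CPM). Without it the estimates at 4 weeks became -0.15 for Ccn2, -0.68 for Amotl2 and -0.12 for Tead1, from 0.23, -0.32 and 0.51 with all libraries. That of Lats2 became -0.60 from -0.82 and that of Eng -2.49 from -1.72, and none of these was called (edgeR).

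Time: Ccn1 was higher and Wwtr1 lower at 4 weeks than at 2 weeks in both genotypes. These 2 of 9 members were called in each genotype (edgeR, adjusted p under 0.05), 1 in each direction. Of all 15703 genes tested, 6.92% were called in WT (790 higher and 296 lower at 4 weeks) and 6.33% in KO (760 and 234). Both comparisons come from a single fit but share no library. Over all genes tested the median change on the log2 scale was 0.42 in WT and 0.49 in KO, while over the 3544 genes with a mean log2 CPM above 5 it was -0.03 and -0.01. The changes of the called members, Ccn1 and Wwtr1, are therefore also given less the median of all genes. The sum of 12 endothelial markers was 5701 to 8175 CPM at 2 weeks and 12290 to 14810 CPM at 4 weeks, with Pecam1, Cdh5, Emcn and Esam called higher at 4 weeks in both genotypes, and its part in the changes of the members was not tested. The 2-week KO males m2 and m3 stood apart by neutrophil markers, which summed to 4039 and 3154 CPM there and to at most 237.6 CPM in the other 15 libraries. In KO the time changes of Ccn1, Ccn2, Wwtr1, Amotl2 and Lats2 are also given without them. The sum of 8 erythroid markers was 61.5 to 232.6 CPM in WT and 277.8 to 1251 CPM in KO at 2 weeks. At 4 weeks it was 172.1 to 1299 CPM in WT and 620.4 to 2912 CPM in KO, and its part in the members' levels was not tested.

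Ccn1 encodes CYR61, a secreted matrix protein of the CCN family. At 2 weeks it stood at 23.1, 60.4, 14.2 and 66.7 CPM in WT f1, f4, m2 and m3 and at 29.3, 90.9, 35.3 and 65.4 CPM in KO f1, f4, m2 and m3. All 8 values lay far under the lowest 4-week value, 838 CPM, and the genotypes overlapped at each time. The mean was 41.1 ± 26.3 CPM in WT (SD, n = 4) against 1065 ± 142.5 (n = 5), and 55.2 ± 28.5 in KO (n = 4) against 994 ± 84.5 (n = 4). The log2 fold change was 4.36 (SE 0.509, adjusted p = 0.000191, edgeR) in WT, rank 48 of 15703 genes by p, and 3.85 (SE 0.510, adjusted p = 0.000625, edgeR) in KO, rank 65. Less the median of all genes these were 3.94 and 3.36. The call held in both genotypes with each of the 17 libraries left out in turn, at an adjusted p of at most 0.00346, and without the 2-week KO males m2 and m3 (adjusted p = 0.0123 in KO, edgeR).

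**Figure D3:**
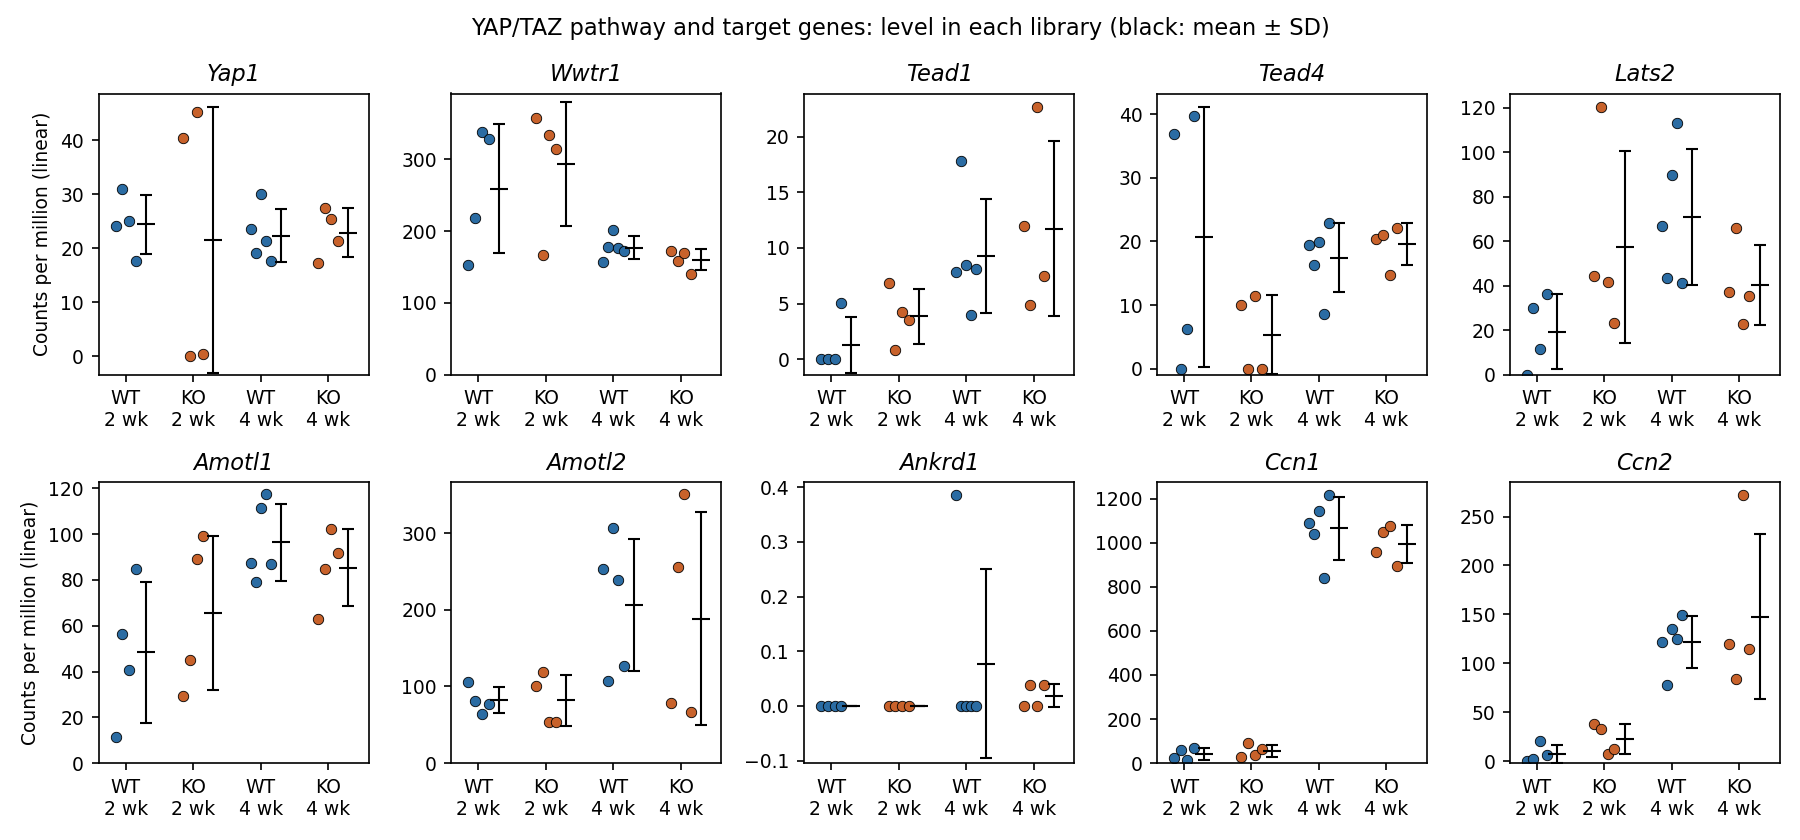
CPM of each of the 10 members (y axes, linear, scaled per gene) in every library by group (x axis): WT and KO at 2 weeks (n = 4 each) and at 4 weeks (n = 5 and 4); points are libraries, black bars mean ± SD. Ccn1 stays under 100 CPM at 2 weeks and at or above 838 CPM at 4 weeks in both genotypes; Ankrd1 is at or near 0 throughout.

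Ccn2, encoding CTGF, a related CCN protein, lay on the same side of the time points. Its values at 2 weeks were 0, 2.71, 20.7 and 6.52 CPM in WT f1, f4, m2 and m3 and 38.1, 32.9, 7.37 and 12.7 CPM in KO f1, f4, m2 and m3. The 4-week values were 122, 78.4, 135, 125 and 149 CPM in WT f, f3, m1, m2 and m3 and 119.6, 84.1, 271.6 and 115 CPM in KO f2, m1, m2 and m3. All 4-week values exceeded all 2-week values. Ccn2 still missed the threshold, with 3.85 (SE 1.15, adjusted p = 0.0600, edgeR) in WT and 2.12 (SE 1.15, adjusted p = 0.316, edgeR) in KO. In WT it passed with DESeq2 (adjusted p = 0.000459), without the sex term (0.0499, edgeR), and without the 2-week WT library f1 (0.0229, edgeR) or m2 (0.0492, edgeR). Without the 2-week KO males m2 and m3 the KO estimate was 0.93.

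The Ccn2 counts carry an uncertainty of their own. On GRCm38 the gene (chr10:24595442-24598683, plus strand) shares 665 exon bases, 23.2% of its exons, with Gm15270 on the opposite strand, and the counting's strand setting is not given in the sources used here. At 4 weeks the counts of Gm15270 were 39.1% to 46.9% of those of Ccn2 in all 9 libraries, and at 2 weeks 0 to 41.5%. Reads of the shared bases cannot be told apart. The sum of both genes was 111 to 384 CPM at 4 weeks and 0 to 49.4 CPM at 2 weeks, so the time points did not overlap in the sum either.

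Wwtr1 moved the other way. At 2 weeks it stood at 152, 218, 338 and 328 CPM in WT f1, f4, m2 and m3 and at 357.5, 166, 334 and 314.5 CPM in KO f1, f4, m2 and m3. By 4 weeks Wwtr1 stood at 156.5, 177, 201, 176 and 173 CPM in WT f, f3, m1, m2 and m3 and at 172, 158, 169 and 140 CPM in KO f2, m1, m2 and m3. Most 2-week libraries were higher, but WT f1 and KO f4 lay within the 4-week range, so the CPM of the time points overlapped. The log2 fold change was -0.86 (SE 0.226, adjusted p = 0.0389, edgeR) in WT and -1.24 (SE 0.244, adjusted p = 0.00908, edgeR) in KO, -1.27 and -1.72 less the median of all genes, and -0.82 and -1.22 less that of the abundant genes. On log2 CPM without TMM scaling the differences were -0.48 in WT (exact two-sided permutation p = 0.111) and -0.82 in KO (exact p = 0.0857). In KO the call held without any 1 library but not without both 2-week males m2 and m3 (-1.14, adjusted p = 0.0684, edgeR). In WT it was lost in 10 of 17 cases of leaving out 1 library, with the estimate between -0.89 and -0.71 and the adjusted p between 0.0538 and 0.100 (edgeR). These were the 4-week WT libraries f, m1, m2 and m3, the 4-week KO libraries m1, m2 and m3, and the 2-week WT libraries f4, m2 and m3.

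**Figure D4:**
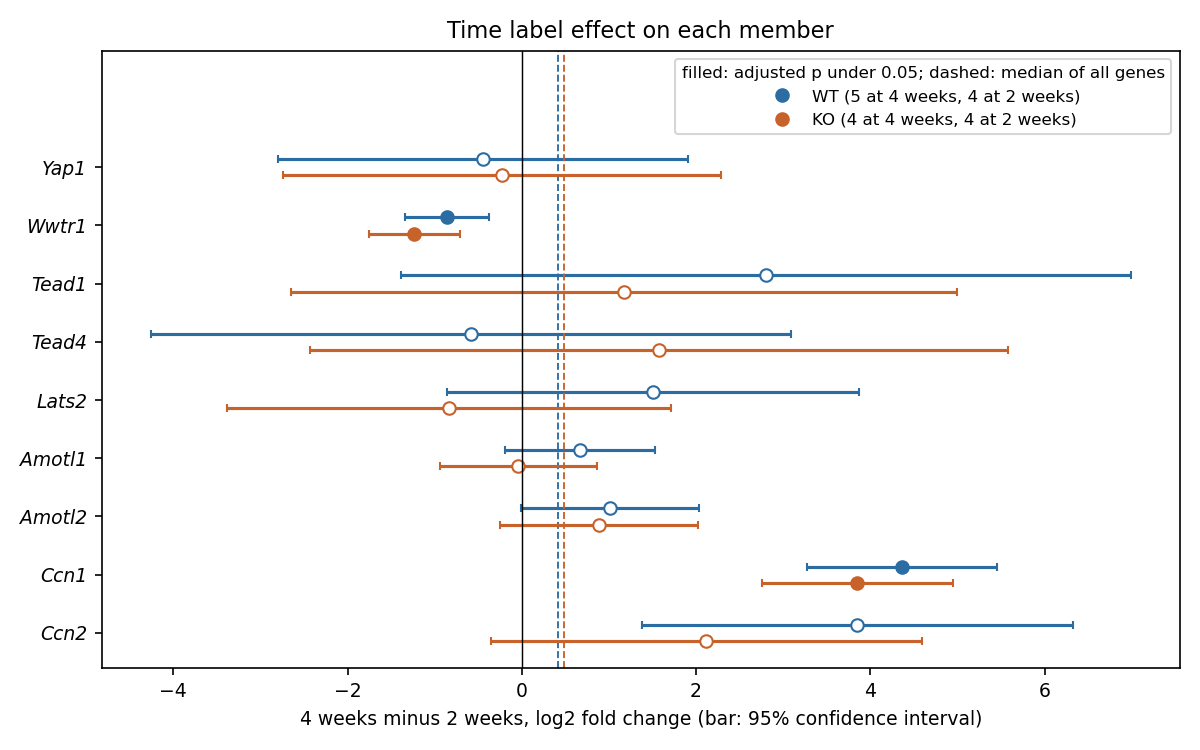
4 weeks minus 2 weeks as log2 fold change (x axis) for the 9 members tested (y axis) in WT (blue) and KO (orange); points are edgeR estimates, filled where the adjusted p is under 0.05, bars are 95% confidence intervals and dashed lines the median of all genes. Ccn1 lies far to the right and Wwtr1 to the left in both genotypes, and 7 members have open points.

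Yap1 was not called between time points, and its counts at 2 weeks were uneven. At 2 weeks it stood at 24.1, 30.9, 25.0 and 17.6 CPM in WT f1, f4, m2 and m3, and in KO at 40.4 CPM in f1 and 45.1 in m2 but 0.0589 in f4 and 0.522 in m3. The KO group was split between the highest and the lowest values of the series, from 1341 counts down to 2. At 4 weeks all 9 libraries lay between 17.2 and 30.1 CPM. The time estimates were -0.44 (SE 1.098) in WT and -0.23 (SE 1.17) in KO (edgeR). Yap1 (chr9:7931999-8004596, minus strand) shares 116 exon bases, 1.25% of its exons, with Gm20416 on the opposite strand.

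The TEAD factors had similar gaps at 2 weeks. Tead1 had 0 counts in 3 of 4 WT libraries of 2 weeks and 5.06 CPM in m3, and 0.854 to 6.85 CPM in KO. At 4 weeks it ranged from 3.98 to 22.7 CPM over both genotypes. Tead4 had 0 counts in WT f4 and in KO f4 and m3 at 2 weeks, with 6.20 to 39.6 CPM in the other WT libraries and 9.998 and 11.4 CPM in the other KO libraries, and ranged from 8.64 to 22.9 CPM at 4 weeks. Its KO values of the 2 times did not overlap, and its WT values did. Neither gene was called with all libraries, with Tead1 at 2.80 (SE 1.95) in WT and 1.18 (SE 1.78) in KO and Tead4 at -0.59 (SE 1.71) and 1.57 (SE 1.87) (edgeR). Without the 2-week WT library m3 Tead1 was called in WT (adjusted p = 0.0023, edgeR), with all other 2-week WT libraries at 0 counts. A count of 0 allows up to 0.0734 to 0.112 CPM in the 2-week libraries.

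The inhibitors were not called by edgeR. Amotl2, an angiomotin family scaffold, stood at 105.3, 81.3, 64.7 and 77.5 CPM in WT f1, f4, m2 and m3 of 2 weeks and at 101, 119.3, 53.2 and 53.9 CPM in KO f1, f4, m2 and m3. The 4-week libraries had 253, 107, 307, 239 and 127 CPM in WT f, f3, m1, m2 and m3 and 78.5, 256, 351 and 66.9 CPM in KO f2, m1, m2 and m3. The WT time points did not overlap, and within 4 weeks both genotypes held high and low libraries with none between 127 and 239 CPM. The time estimates were 1.01 (SE 0.477, adjusted p = 0.225, edgeR) in WT and 0.89 (SE 0.530, adjusted p = 0.385, edgeR) in KO, or 0.20 in KO without the 2-week males m2 and m3. Amotl1, the paralog, ranged from 62.7 to 117 CPM at 4 weeks and from 11.4 to 99.2 CPM at 2 weeks, with estimates of 0.67 (SE 0.403) and -0.04 (SE 0.421) (edgeR). Lats2 gave 1.51 (SE 1.104) in WT, where the time points did not overlap, and -0.84 (SE 1.19) in KO, where they did (edgeR), or -1.66 in KO without those males.

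Genes listed as markers of other marrow cells varied over the same 4-week libraries as Amotl2, and whether they came from such cells was not tested. The summed level of 12 mesenchymal stromal markers, Cxcl12 chief among them, was 3100, 1305, 2487, 3369 and 1399 CPM in WT f, f3, m1, m2 and m3 and 1010, 2228, 2963 and 1035 CPM in KO f2, m1, m2 and m3. That of 8 smooth muscle and pericyte markers was 2992, 750, 1339, 2134 and 982 CPM in those WT libraries and 881, 1615, 2148 and 817 CPM in those KO libraries. The libraries with the higher Amotl2 were also those with the higher sums in both lists. At least 10 of 12 and 7 of 8 of these markers were above 3 counts in each of the 9 libraries, among them Myh11 (14.9 to 76.2 CPM) and Lepr (14.9 to 62.6 CPM). Their part in the spread of Amotl2 was not tested.

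Counted without overlap, 4 of 9 members separated the times in WT (Lats2, Amotl2, Ccn1 and Ccn2, all higher at 4 weeks), where 18.1% of all genes did. In KO 3 of 9 did (Tead4, Ccn1 and Ccn2, all higher at 4 weeks), where 23.3% of all genes did. The exact two-sided permutation test of log2 CPM, without TMM scaling and without adjustment for the number of members, gave its smallest possible p over time in WT, 0.00794, for Ccn1, Ccn2 and Lats2. In WT it gave permutation p = 0.0159 for Tead1 and for Amotl1, 0.0317 for Amotl2, 0.532 for Tead4 and 0.540 for Yap1. In KO it gave its smallest possible p, 0.0286, for Ccn1, Ccn2 and Tead4, 0.0571 for Tead1 and 0.286 to 0.543 for Yap1, Lats2, Amotl1 and Amotl2. The differences of mean log2 CPM were not those of edgeR for members with libraries at or near 0. In WT Lats2 differed by 3.62 and Tead4 by 1.75, and in KO Yap1 differed by 2.73, the last 2 with the sign opposite to edgeR's.

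Ankrd1, a cardiac and muscle ankyrin-repeat protein widely used as a YAP target in cultured cells, was close to absent from these counts. It had 0 counts in all 8 libraries of 2 weeks and 13 counts (0.386 CPM) in the 4-week WT library f. The other 8 libraries of 4 weeks held 0 or 1 count. It was not tested.

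The immediate early genes, transcripts induced within minutes by serum, stress or cell handling, differed between the times along with Ccn1, which is itself known as an immediate early gene. Of the 20 genes of the list 11 were called higher in each genotype, against 6.92% and 6.33% of all genes, with a median of 2.10 in WT and 2.83 in KO (edgeR) against 0.42 and 0.49. Within the 2-week libraries 18 of the 20 passed the low-count filter, and the others passed with the 4-week libraries. The 5 with the smallest p in WT were Junb, Egr2, Jun, Ier3 and Fos, and in KO Junb, Jun, Egr2, Ier3 and Egr1. Fos rose from 202 ± 116 CPM (SD, n = 4) to 2716 ± 275.6 (SD, n = 5) in WT, by 3.46 (SE 0.531, adjusted p = 0.00177, edgeR). Junb rose from 139 ± 45.8 (SD, n = 4) to 2745 ± 585.6 CPM (SD, n = 4) in KO, by 3.92 (SE 0.313, adjusted p = 2.13e-05, edgeR). Egr2 had at most 1 count in any 2-week library and 28.5 to 97.5 CPM at 4 weeks. The summed level of the 20 genes was 2006 to 3701 CPM in the 8 libraries of 2 weeks and 12450 to 20260 CPM in the 9 of 4 weeks, and their part in the change of Ccn1 was not tested. Against WT, 0 of 18 immediate early genes tested at 2 weeks and 0 of 20 at 4 weeks were called in KO; 0 of these had an unadjusted p under 0.05 (edgeR).

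**Figure D5:**
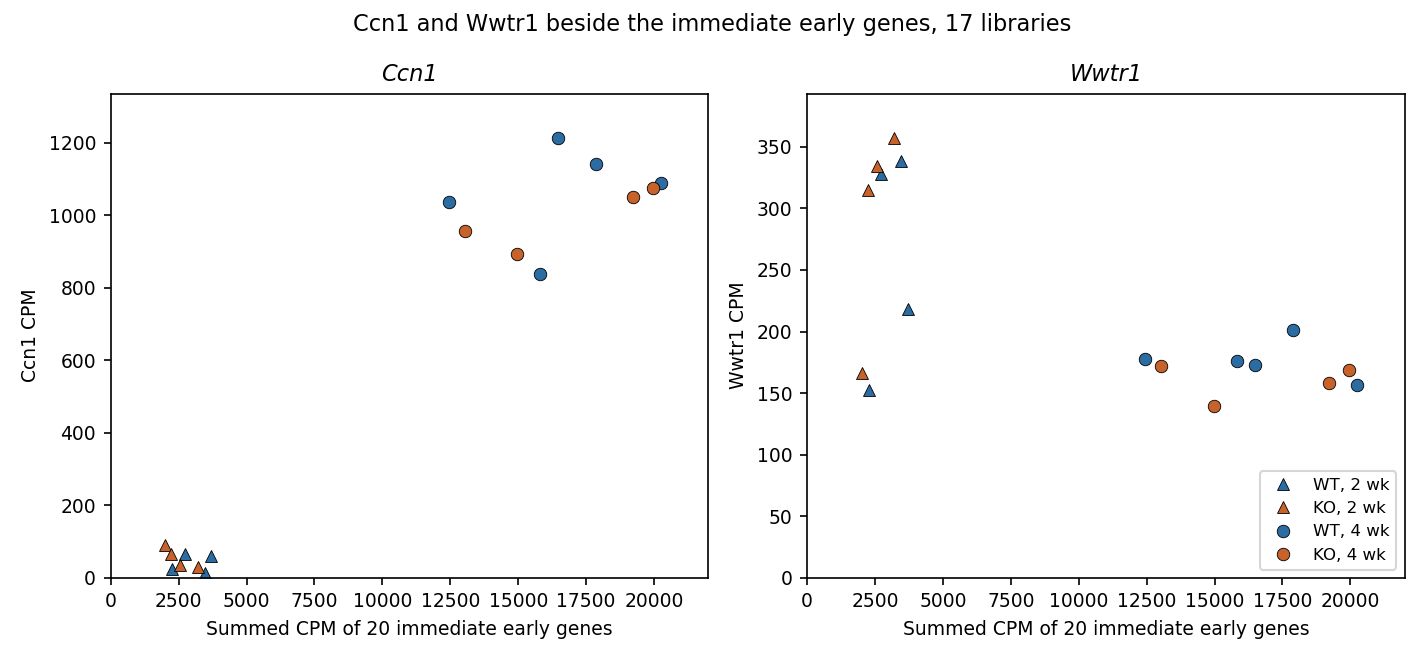
CPM of Ccn1 (left) and Wwtr1 (right) on the y axes against the summed CPM of 20 immediate early genes on the x axis, all linear; triangles are 2-week and circles 4-week libraries, blue WT and orange KO (17 libraries). The time points form separate clusters, with early gene sums of 2006 to 3701 and 12450 to 20260 CPM, and the genotypes mix within each.

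For the other pathway genes the share of all genes called, 6.92% in WT and 6.33% in KO, is the background of counts of edgeR calls over time with all libraries and the low-count filter. For counts at an unadjusted p under 0.05 the background is 3571 of 15703 genes in WT and 3611 in KO. Of 24 Hippo kinases and scaffolds 23 were tested, of which 19 passed the low-count filter within the 2-week libraries; Lats1 and Dlg5 did not and entered through the other libraries. In WT Lats1 (adjusted p = 0.0141, edgeR), the second LATS kinase, and Dlg5 (0.0187), a polarity scaffold, were called higher at 4 weeks, and in KO 0 of 23 were called, with 1 at an unadjusted p under 0.05 (Ajuba, followed by Dlg5). Lats1 and Dlg5 had 0 counts in the 4 WT libraries of 2 weeks and were at least 170-fold and at least 61.7-fold higher at 4 weeks against the mean floor of 3 counts per library. Lats1 ranged from 5.12 to 40.6 CPM in 4-week WT, and without its highest library, m2, the bound was 87.6-fold. The most abundant of the list per length in 4-week WT included Rassf1 (44.6 ± 5.27 CPM per kb) and Mob1a (28.2 ± 16.3; SD, n = 5). Within the 2-week libraries 3 of 10 TEAD factors and cofactors passed the low-count filter. Runx1, Runx2 and Tead3 had 0 counts in all 2-week WT libraries and entered through the others. Of this list 6 of 10 were tested and 0 called in either genotype (3 and 0 with an unadjusted p under 0.05), first by p being Runx1 and Wbp2 in WT and Wbp2 and Tead2 in KO. The most abundant were Wbp2, a WW-domain-binding cofactor, at 40.7 ± 6.49 CPM per kb in 4-week WT, and Vgll4, a TEAD-binding antagonist of YAP, at 17.9 ± 3.71 (SD, n = 5).

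Of 22 other targets of YAP and TAZ, a signature outside the members, 18 were tested over time. Within the 2-week libraries 11 passed the low-count filter, so the others entered through the 4-week libraries. In WT 2 of 18 were called (6.92% of all genes), both higher at 4 weeks: Igfbp3, a secreted IGF-binding protein, at 0.97 (SE 0.254, adjusted p = 0.0381, edgeR) with 286 to 487 CPM at 2 weeks and 766 to 1131 CPM at 4 weeks, and Arhgef17 (adjusted p = 0.0275, edgeR), at 0 counts in all 2-week libraries. In KO 1 of 18, Arhgef17, was called, against 6.33% of all genes (adjusted p = 0.0369, edgeR). The count of calls ranged from 0 to 3 in WT and from 0 to 2 in KO when 1 library was left out. It fell in WT without any of the 4-week libraries WT f, f3, m1, m2 and m3 and KO f2, m1 and m2, or the 2-week WT libraries f1 and m2. In KO it fell to 0 without any of the 4-week libraries WT f, f3 and m3 and KO f2, m1 and m2, or the 2-week KO library f1. DESeq2 called 6 in WT and 7 in KO, where it called 2938 and 2873 of all 15703 genes. With no low-count filter 1 and 0 were called (edgeR), where 580 and 567 of all genes were. Gadd45b, a stress-induced gene of this list and second after Igfbp3 per length, stood at 0 to 20.8 CPM in the 2-week libraries and 166 to 305 CPM in those of 4 weeks. The third, Fstl1, averaged 57.9 ± 4.93 CPM per kb (SD, n = 5) in 4-week WT.

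Of the other CCN genes 0 of 4 passed the low-count filter within the 2-week libraries, so the 3 tested over time entered through the 4-week libraries. Ccn3, an inhibitory CCN relative, was the 1 of 3 other CCN genes called in WT (adjusted p = 0.0324, edgeR), at 0 counts in all 4 WT libraries of 2 weeks and 5.57 to 16.4 CPM at 4 weeks, and 0 of 3 were called in KO, where Ccn5 and Ccn4 came first by p with none under 0.05 unadjusted (edgeR). The actin and SRF-MRTF list, a pathway that shares stimuli and targets with YAP, had 0 of 20 called in WT. There 8 had an unadjusted p under 0.05, against 3571 of all 15703 genes, with Flna (1.32, adjusted p = 0.0724, edgeR) and Myl9 (1.21, adjusted p = 0.0819, edgeR) first by p. In KO 1 of 20 was called: Myl9, a myosin light chain, from 24.3 ± 11.98 CPM (SD, n = 4) to 165 ± 21.8 CPM (SD, n = 4), by 2.51 (SE 0.432, adjusted p = 0.00414, edgeR). The most abundant genes of the actin list per length in 4-week WT were Actb, Tpm4 and Tagln2.

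Against WT the same lists held no call in KO. At 2 weeks the edgeR test called 0 of 19 Hippo genes, 0 of 3 TEAD cofactors, 0 of 11 signature genes and 0 of 17 actin genes, and 1 of these genes had an unadjusted p under 0.05. That was Sav1, the scaffold of the MST kinases (unadjusted p = 0.0318, adjusted p = 1.0, edgeR). The pairs with the smallest p in the other lists were Tead2 and Wbp2, Ccdc80 and Nuak2, Cnn2 and Myl9, and Nr4a1 and Btg2. At 4 weeks it called 0 of 23, 0 of 4, 0 of 18, 0 of 3 CCN genes and 0 of 20, and the 2 genes with an unadjusted p under 0.05 were Angpt2 and Nuak2 of the signature. First by p in the other lists were Frmd6 and Amot, Vgll4 and Runx1, Ccn3 and Ccn5, Actb and Mrtfb, and Rhob and Ier2, with unadjusted p from 0.107 to 0.506 (edgeR). Angpt2, an angiopoietin that destabilises vessels, stood at 28.5 to 62.0 CPM in WT and 119.7 to 191.5 CPM in KO without overlap, a log2 difference of 1.52 (SE 0.273, unadjusted p = 0.000398, adjusted p = 1.0, edgeR), rank 1 of 15209 genes by p. Nuak2, a kinase, gave 1.02 (SE 0.358, unadjusted p = 0.0195, adjusted p = 1.0, edgeR), with 15.2 to 26.4 CPM in WT and 18.2 to 70.8 CPM in KO. For the average KO effect over both times 0 genes of these lists were called, with Lats1 and Dlg5, Runx2 and Runx1, Nt5e and Ccdc80, Ccn3 and Ccn4, Cnn1 and Actb, and Egr3 and Nr4a1 first in their lists and all at an unadjusted p under 0.05 (edgeR), as were 1725 of all 15703 genes. For the difference of the KO effects 0 were called as well, with Lats1 and Dlg5, Runx1 and Runx2, Nt5e and Rbms3, Ccn3 and Ccn5, Cnn1 and Myl9, and Egr3 and Junb first by p at unadjusted p from 0.0023 to 0.107 (edgeR). For the difference 1540 of all genes had an unadjusted p under 0.05. Of the genes named, Lats1, Dlg5, Runx1, Runx2, Ccn3 and Ccn4 had 0 counts in all 2-week WT libraries. Nt5e, Cnn1 and Egr3 had 0 counts in all 2-week KO libraries. These genes entered the fit through the other groups, and their p in both comparisons rests on a group at 0 counts.

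The genes most like 3 of the members over the 9 libraries of 4 weeks were sought among 12472 genes by Pearson's r of log2 CPM. For Wwtr1 they were Stt3b (r = 0.96), Smpdl3b (0.93) and Taf1a (0.92). For Ccn1 they were Zfp940 (0.92), Kctd9 (0.92) and Ccnl2 (0.90), and for Ccn2 Gm15270 (0.98), which shares its exon bases, Arhgap17 (0.92) and Dph3 (0.90). The libraries differ in depth, and the highest of so many coefficients over 9 points describes these libraries only.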

How the data were processed

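Endothelial cells of mouse bone marrow were profiled in 17 SmartSeq2 libraries. The authors deposited 1 table of raw read counts per gene and library, made with cutadapt, STAR and HTSeq 0.6.1p1 on the mouse build GRCm38 (mm10), per the submitters' processing notes. The strand setting and the annotation release are not given in the sources used here. SmartSeq2 has no molecular identifiers, so the floor of detection covers counting error only.

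Gene names and exon lengths came from GENCODE M21 on GRCm38, which named 49326 of 49585 identifiers. CPM are the deposited counts scaled to a common library total and, to compare genes, were divided by exon length in kb. A count of 3 was the floor of detection.

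Counts were tested with edgeR 4.0.16 in R 4.3.3: filterByExpr, TMM scaling, a robust quasi-likelihood fit with sex as a term, and Benjamini-Hochberg adjustment across the whole table, with calls made at an adjusted p under 0.05. KO was compared with WT within each time point. One fit of all 17 libraries gave 4 against 2 weeks in WT and in KO, the difference of the KO effects and their average. Levels of single genes were also compared between genotypes and between time points by two-sided exact permutation of the libraries on log2 CPM with a prior count of 2. DESeq2 1.42.0 and the other alternatives are given in the closing section. The comparison of KO with WT within a time point was also run on simulated counts, which did not cover the fit of all 17 libraries.

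The report names all 10 members and Eng. From each pathway list it names up to 5 called genes per direction, otherwise the 2 with the smallest unadjusted p, and the 3 genes with the highest level per length in 4-week WT. One gene that this rule names is not reported here. For Wwtr1, Ccn1 and Ccn2 it names the 3 genes of the most similar pattern among genes with a mean count of at least 50. The members, the lists and these rules were chosen with earlier results of these data known. Library means stand with the SD over libraries. P-values measure only the spread between the libraries of a group. Promoter windows came from RefSeq on GRCm38.p6.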

Additional observations from a re-analysis of the deposited data

Results flagged for a closer look

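Among 37 sets of values, a member in a group with more than 3 counts in at least 1 library, 2 held a library far from the others; chance gives such a case in about 1 of 20 sets. Tead1 in WT at 2 weeks was at 5.06 CPM in library m3 and at 0 counts in the other 3 libraries. Ankrd1 in WT at 4 weeks was at 0.386 CPM in library f, from 13 counts, and at 0 counts in the other 4 libraries. Library f is the deepest of the 4-week libraries, at 33726630 counts. The cause was not tested.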

How the results depend on the processing

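Tead1, Tead4, Lats2 and Ccn2 had 2-week libraries at 0 counts, though the 2-week libraries held more counts (median 35156440) than the 4-week ones (26773453). Of 1115 fold changes of members recomputed under alternatives 1038 kept direction and side of the threshold, 12 lost the call, 7 gained it and 58 changed sign. Of 348 counts of calls 259 stayed within 1.5 times, 54 fell and 35 rose further; the causes were not tested. Ccn1 kept its call over time in both genotypes in each alternative run. DESeq2 called 149 genes for KO against WT at 2 weeks, 17 at 4 weeks, 1303 for the difference of effects, 1396 for the average, 2938 over time in WT and 2873 in KO, against 0, 0, 12, 13, 1086 and 994 by edgeR; 3 members were called over time in WT, Ccn2 being the third. A fit of all 17 libraries called 31 at 2 weeks. With no low-count filter 6 were called for the difference, 8 for the average, 580 over time in WT (1 member, since Wwtr1 had an adjusted p of 0.0640, edgeR) and 567 in KO. The alternatives chosen after seeing the data were filtering on genotype, leaving out mitochondrial genes, a minimum of 10 counts in every library, and leaving out the 2-week KO males m2 and m3. With the minimum of 10 counts 639 genes were called over time in WT and 626 in KO. Without the 2 males 251 were called for the difference, 289 for the average and 1 member over time in KO.

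Signs turned in small estimates. KO against WT for Amotl2 at 2 weeks was 0.21 without both males, and for Yap1 at 4 weeks 0.038 without the sex term, 0.13 with the replicate block and 0.0222 in the fit of all 17 libraries. Over time in KO, Amotl1 gave 0.0087 with DESeq2's size factors, 0.0085 with DESeq2, 0.0287 without the sex term, 0.037 with the minimum of 10 counts and 0.49 without both males. In the average, Wwtr1 gave -0.0016 with the size factors, -0.0017 with DESeq2 and -0.0252 without both males, where Amotl1 gave -0.18 and Amotl2 0.15.

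Leaving out 1 library at a time gave 7 to 51 genes called for the difference of effects (0 to 1 member, Tead1 without 2-week WT m3), 5 to 60 for the average (0 to 1 member, likewise), 588 to 1261 over time in WT (1 to 3 members, Tead1 among them without 2-week WT m3) and 504 to 1222 in KO. Estimates that changed sign ranged as follows. At 2 weeks Yap1 ranged from -1.83 to 0.27, Wwtr1 from -0.0618 to 0.37, Amotl2 from -0.23 to 0.0548 and Ccn1 from -0.0243 to 1.05. At 4 weeks Yap1 ranged from -0.12 to 0.14, Tead1 from -0.12 to 0.76, Tead4 from -0.0127 to 0.37, Amotl2 from -0.68 to 0.0040 and Ccn2 from -0.15 to 0.43. For the difference Yap1 ranged from -0.21 to 1.26, Amotl2 from -0.57 to 0.24 and Eng from -0.49 to 0.47. Over time Tead4 in WT ranged from -0.9998 to 0.13, and in KO Yap1 from -0.68 to 0.90 and Amotl1 from -0.23 to 0.14. In the average Yap1 ranged from -0.50 to 0.15, Wwtr1 from -0.0843 to 0.11, Amotl1 from -0.0854 to 0.22, Amotl2 from -0.30 to 0.0877 and Ccn1 from -0.0325 to 0.45.

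The replicate block called 0 members at 2 weeks and 0 at 4 weeks (males only), as without it, and 0 of all genes. Same-numbered WT and KO libraries correlated in their deviations at -0.02 to 0.19 over 7 pairs, against -0.14 to 0.09 for other pairs, so the numbers were not taken to pair the samples.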
